A study of Mus musculus with 22 samples.

Results

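The genes described here are 43 mouse interferon-stimulated genes, the antiviral and immune effectors that cells transcribe after an interferon has bound its receptor. They were chosen by name as known targets of interferon, by a rule that uses no measured value but with earlier results of these data known. The interferon regulatory factors that switch such genes on were left out. Each of the 43 had a row among the 21995 genes of the count table, and each is protein-coding. Cells that sense foreign or misplaced nucleic acid release type I interferons, which act through receptor-bound JAK kinases on transcription factors that include STAT2 and IRF9 and bind a DNA sequence called the interferon-stimulated response element (ISRE). The response to interferon-gamma runs through a different sequence, the gamma-activated site (GAS), and in the central nervous system microglia and astrocytes are among the cells that respond to both kinds of interferon. By role, the set holds 4 genes for RIG-I-like receptors and STAT2, 10 RNA-binding antiviral effectors, 9 genes of the ISG15, ubiquitin and PARP systems, 8 interferon-inducible GTPases, 4 membrane restriction factors and 8 further interferon-stimulated genes.

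RNA was sequenced from the whole spinal cord of 22 C57BL/6 mice, with 1 library per mouse, to ask how transcription in this tissue changes in normal aging and in a model of amyotrophic lateral sclerosis (ALS). For aging, 8 old wild-type males of 18–24 months were compared with 8 young wild-type males of 3–4 months, all from Roche KAPA HyperPrep libraries. For ALS, 3 symptomatic mice of 5–6 months that carry the high-copy SOD1G93A transgene, a mutant human SOD1, were compared with 3 wild-type controls of the same age, all from Illumina TruSeq libraries. Per the study, each of these ALS groups held 2 females and 1 male. Mice with this transgene overexpress the mutant protein throughout the body. The study states that mice whose own Sod1 is mutated do not get motor neuron disease spontaneously. The libraries of the 2 comparisons were made with different kits, so every fold change below was taken within a kit.

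Total counts were between 5078092 and 9358055 per library in the aging groups and between 9675610 and 13219797 in the ALS groups. Levels of a gene are given as CPM, its counts scaled to the size of the library. Mouse Sod1, whose row can also take reads of the similar human transgene, stood at 156, 156 and 168 CPM in controls and at 296, 298 and 335 CPM in SOD1G93A mice, higher in all 3 mice with the labelled transgene. Markers of neurons, astrocytes and oligodendrocytes were abundant in each library. Markers of T and NK cells summed to at most 4.46 CPM in any library of either comparison. In 1 old mouse, 15.1% of the counts fell on its 10 most abundant genes, against at most 11.9% in the other old mice, and this mouse had the lowest CPM of its group for 18 of the 39 members tested there. In 1 SOD1G93A mouse, 36 of the 42 members tested there had their highest CPM of the group.

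The DNA just upstream of these genes was read from RefSeq promoters of the GRCm38.p6 build, each a window from 250 bases before to 50 bases after an annotated start. A promoter was found for 32 of the 43 genes. An ISRE core, which reads GAAA, any 2 bases and GAAA again and was searched on both strands, was present in 19 of these 32 genes (59.4%), against 3.99% of all 27025 genes with such a promoter. A GAS element, TTCNNNGAA, which reads the same on both strands, was present in 9 of 32 (28.1%), against 9.55% of those genes. Of the 32 genes, 7 held both motifs, and in Bst2 and Ifitm3 a match to one overlapped a match to the other. Such a match describes letters in the window and does not show binding. The 250 bases before the start are printed for 7 genes, 5′ to 3′ on the strand of the gene, with each ISRE core in capitals. Isg15, Bst2, Gbp2 and Ifit1 are shown as members with large changes in SOD1G93A mice whose window holds the core. Oasl2 is shown as a member with a large change whose window does not. Rsad2 and Cmpk2 are shown as neighbours that differed in their change.
Isg15, chr4:156200819-156201068, minus strand: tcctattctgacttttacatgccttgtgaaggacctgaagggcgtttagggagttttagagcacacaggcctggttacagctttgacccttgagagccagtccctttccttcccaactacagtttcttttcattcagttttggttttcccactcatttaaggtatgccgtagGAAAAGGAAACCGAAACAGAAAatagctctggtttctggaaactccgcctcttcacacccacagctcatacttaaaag
Bst2, chr8:71537473-71537722, minus strand: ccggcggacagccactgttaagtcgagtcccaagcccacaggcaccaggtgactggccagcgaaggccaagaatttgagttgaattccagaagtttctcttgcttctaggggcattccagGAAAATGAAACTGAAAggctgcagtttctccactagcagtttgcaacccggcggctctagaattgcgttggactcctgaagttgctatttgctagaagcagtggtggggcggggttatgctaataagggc
Gbp2, chr3:142620413-142620662, plus strand: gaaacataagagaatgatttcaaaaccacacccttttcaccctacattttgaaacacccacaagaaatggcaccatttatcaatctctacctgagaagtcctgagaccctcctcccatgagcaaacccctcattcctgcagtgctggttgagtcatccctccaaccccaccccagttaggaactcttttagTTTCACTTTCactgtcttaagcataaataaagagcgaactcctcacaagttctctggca
Ifit1, chr19:34640639-34640888, plus strand: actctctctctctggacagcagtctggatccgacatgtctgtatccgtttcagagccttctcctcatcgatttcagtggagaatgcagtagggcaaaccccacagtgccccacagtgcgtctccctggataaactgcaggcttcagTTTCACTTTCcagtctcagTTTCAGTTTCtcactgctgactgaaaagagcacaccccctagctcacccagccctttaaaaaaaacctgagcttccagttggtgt
Oasl2, chr5:114896684-114896933, plus strand: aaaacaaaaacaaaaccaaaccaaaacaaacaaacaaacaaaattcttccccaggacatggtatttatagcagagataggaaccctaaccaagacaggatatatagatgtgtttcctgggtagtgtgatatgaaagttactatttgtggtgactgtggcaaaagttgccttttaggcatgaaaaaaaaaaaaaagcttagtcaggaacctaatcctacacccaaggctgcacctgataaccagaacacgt
Rsad2, chr12:26456453-26456702, minus strand: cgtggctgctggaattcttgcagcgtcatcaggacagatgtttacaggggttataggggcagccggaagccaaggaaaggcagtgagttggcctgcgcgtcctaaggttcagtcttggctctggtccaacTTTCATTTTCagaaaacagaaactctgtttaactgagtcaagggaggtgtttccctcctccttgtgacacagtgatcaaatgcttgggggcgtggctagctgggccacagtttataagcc
Cmpk2, chr12:26468965-26469214, plus strand: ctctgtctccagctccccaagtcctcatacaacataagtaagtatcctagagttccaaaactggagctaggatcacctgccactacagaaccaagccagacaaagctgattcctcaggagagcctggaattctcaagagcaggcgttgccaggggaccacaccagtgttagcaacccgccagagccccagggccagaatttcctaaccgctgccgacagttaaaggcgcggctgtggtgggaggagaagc
In Isg15 the core occurred 3 times in overlapping register, at -78, -72 and -66 from the start. Bst2 held 2 overlapping cores, Ifit1 held 2 that lie apart, and Gbp2 and Rsad2 held 1 each. In the windows of Oasl2 and Cmpk2 these letters were not found, which says nothing about sites elsewhere.

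In old spinal cord the set stood higher than in young spinal cord, by moderate amounts. Of the 43 genes, 39 had enough counts to be tested, and 28 of these rose at an adjusted p under 0.05 in edgeR's quasi-likelihood test, where 13.5% of all 13647 genes tested rose by the same rule. None of the 39 fell at this threshold, and none fell at an unadjusted p under 0.05 or with DESeq2. With the study's further requirement of a log2 fold change beyond 1, 6 members were called higher, against 2.18% of all genes tested. These were Oas1a, Bst2, Usp18, Gbp2, Oasl2 and Trim30a. Of these, Oas1a, Usp18 and Bst2 could pass the count filter only with the old group counted in. With at least 10 counts required in every library, 33 members were tested, of which 24 rose at the adjusted p and 3 were called higher. The log2 fold change was positive for 36 of the 39, against 49.4% of all genes tested, with a median of 0.62 where the median of all genes tested was -0.0027. In whole tissue, more RNA per cell and more cells of a kind that carries the RNA cannot be told apart.

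Averaged over the 39 tested members, log2 CPM ran from 2.30 to 2.47 in young mice with a median of 2.42, and from 2.72 to 3.17 in old mice with a median of 2.98. The lowest old mouse thus lay above the highest young mouse. It was the library with the large share of counts on few genes. Per member the separation was weaker. The groups did not overlap, with old mice higher, for 6 of the 39 (Gbp2, Oasl2, Trim30a, Ifitm3, Igtp and Parp12), where 3.66% of all genes tested separated in this way.

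**Figure D1:**
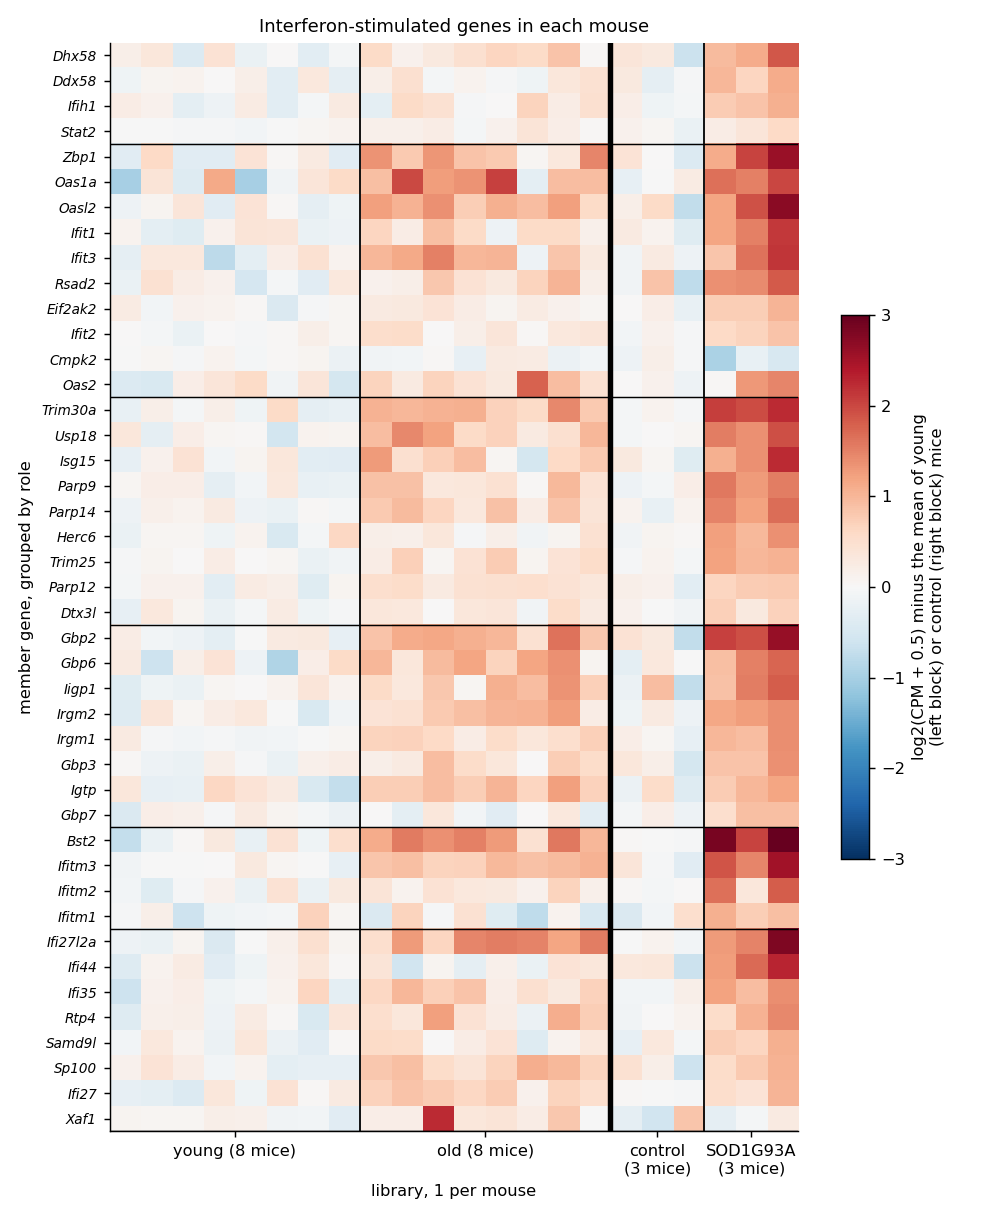
Level of each of the 43 members (rows, grouped by role) in each of the 22 mice (columns), as log2(CPM + 0.5) minus the mean of young mice for the 2 aging groups and minus the mean of control mice for the 2 ALS groups, with colours ending at 3 in either direction. Most rows are redder in old than in young mice and redder again in SOD1G93A mice, and the third SOD1G93A column is the mouse that was highest for 36 of the 42 tested members.

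Among the RNA-binding effectors, 6 of 8 tested genes rose in old mice. Oasl2 encodes an oligoadenylate synthetase-like protein that supports RNA sensing. Its lowest, median and highest values were 5.43, 6.81 and 9.44 CPM in young mice and 10.7, 15.1 and 18.8 CPM in old mice. The groups did not overlap, and the log2 fold change was 1.06 (SE 0.13, adjusted p = 1.62e-06). Oas1a encodes an oligoadenylate synthetase, which upon binding double-stranded RNA makes the messenger that activates RNase L. It was scarce, at 0, 0.604 and 1.70 CPM in young mice and 0.308, 1.64 and 3.65 CPM in old mice, and could pass the count filter only with the old group counted in. The groups overlapped, and at a log2 fold change of 1.66 it had both the largest estimate among the members and the largest error (SE 0.48, adjusted p = 0.0124). The IFIT proteins bind viral RNA ends, and Ifit3, Ifit1 and Ifit2 had log2 fold changes of 0.90, 0.51 and 0.32, all past the adjusted threshold. Rsad2, or viperin, which makes a chain-terminating nucleotide, rose by 0.57 on the log2 scale (adjusted p = 0.0475). The calls of Ifit1 and Rsad2 were narrow. Neither passed in DESeq2, where their adjusted p-values were 0.0546 and 0.0654.

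Eif2ak2 and Cmpk2 of this group gave no call in aging. Eif2ak2 encodes PKR, the kinase that halts translation upon binding double-stranded RNA. It measured 8.06, 11.5 and 13.3 CPM in young mice and 11.5, 13.1 and 14.8 CPM in old mice, with overlapping groups and a log2 fold change of 0.21 (SE 0.09, adjusted p = 0.0921). Cmpk2 encodes a mitochondrial nucleotide kinase and lies beside Rsad2. At 32.0, 36.6 and 39.3 CPM in young and 30.6, 34.2 and 43.6 CPM in old mice it covered the same range, with a log2 fold change of -0.02 (SE 0.07, adjusted p = 0.884). Oas2 and Zbp1 had too few counts for the test. Zbp1, a sensor of left-handed nucleic acid helices that can trigger necroptosis, reached at most 0.455 CPM in young and 1.22 CPM in old mice.

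In the ISG15, ubiquitin and PARP systems 7 of 9 genes rose in old mice, 2 of them past the fold threshold. Trim30a encodes a ubiquitin ligase that restrains Toll-like receptor signaling. It measured 2.62, 3.04 and 5.09 CPM in young and 5.09, 7.12 and 9.72 CPM in old mice. The groups touched without overlapping, and the log2 fold change was 1.05 (SE 0.16, adjusted p = 2.72e-05). Usp18, the protease that removes ISG15 from proteins and also dampens interferon receptor signaling, measured 0.565, 1.15 and 1.48 CPM in young and 1.39, 2.24 and 3.75 CPM in old mice. Its groups overlapped slightly, with a log2 fold change of 1.11 (SE 0.24, adjusted p = 0.00124). Like Oas1a, Usp18 could pass the count filter only with the old group counted in. Isg15 itself, the ubiquitin-like modifier, had a log2 fold change of 0.79 (adjusted p = 0.0334). This call was narrow and was lost in 8 of the 16 fits that left out 1 library. Parp14, Parp9, Parp12 and Trim25 rose by 0.70, 0.62, 0.45 and 0.44 on the log2 scale. Dtx3l, the ubiquitin ligase partner of PARP9, measured 7.29, 8.44 and 11 CPM in young and 8.02, 11 and 12.9 CPM in old mice. These groups overlapped, and the log2 fold change of 0.27 did not pass (SE 0.11, adjusted p = 0.0710), nor did that of Herc6 at 0.16.

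Of the interferon-inducible GTPases, some of which attack the membranes of vacuoles around intracellular pathogens, 7 of 8 rose in old mice. The median log2 fold change of these 8 genes, 0.82, was the largest of the 6 role groups. Gbp2, a guanylate-binding protein, measured 3.62, 4.36 and 5.62 CPM in young and 6.32, 9.70 and 14.9 CPM in old mice. The groups did not overlap, and the log2 fold change was 1.10 (SE 0.15, adjusted p = 6.69e-06). The other guanylate-binding proteins Gbp6 and Gbp3 rose by 0.93 and 0.51 on the log2 scale, while Gbp7 had a log2 fold change of -0.05 (adjusted p = 0.854). Among the immunity-related GTPases, Iigp1, Igtp, Irgm2 and Irgm1 rose by 0.94, 0.82, 0.82 and 0.56 on the log2 scale. Igtp and Irgm2 overlap on the same strand over 7974 bases, so their counts may not be separate.

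Among the membrane restriction factors, Bst2 and Ifitm3 rose. Bst2 encodes tetherin, which holds budding virus at the cell surface. It measured 0.865, 1.69 and 2.72 CPM in young and 2.62, 5.17 and 6.25 CPM in old mice. Only the lowest old mouse fell inside the young range, and the log2 fold change was 1.47 (SE 0.21, adjusted p = 1.42e-05). Bst2 too could pass the count filter only with the old group counted in. Ifitm3, which blocks fusion of virus in endosomes, measured 10.9, 12.8 and 15.8 CPM in young and 20.9, 24.4 and 27.3 CPM in old mice, and the groups did not overlap. Its log2 fold change of 0.88 carried the smallest adjusted p of the set (SE 0.08, adjusted p = 1.21e-08) and stayed under the fold threshold. Its relatives Ifitm2 and Ifitm1 had log2 fold changes of 0.34 and -0.04 and did not pass (adjusted p = 0.0593 and 0.926).

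The receptors that sense cytoplasmic RNA showed less. Of these and Stat2, only Dhx58, which encodes LGP2, passed, with a log2 fold change of 0.51 (adjusted p = 0.0454; 0.0682 with DESeq2). Ifih1, which encodes MDA5, and Ddx58, which encodes RIG-I, had log2 fold changes of 0.30 and 0.17 (adjusted p = 0.157 and 0.310). Stat2 measured 27, 28.1 and 30.7 CPM in young and 27.1, 31.5 and 37.0 CPM in old mice, overlapping groups with a log2 fold change of 0.16 (SE 0.06, adjusted p = 0.0568).

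Of the further members, 5 of 6 tested genes rose in old mice. These were Sp100, a nuclear body protein (log2 fold change 0.80), Xaf1 (0.77), Ifi35 (0.67), Rtp4 (0.67) and Ifi27 (0.62), while Samd9l at 0.26 did not pass. The change of Xaf1, which encodes an antagonist of the apoptosis inhibitor XIAP, rested largely on 1 old mouse at 41.6 CPM, where the other old mice lay between 8.39 and 15.3 CPM and young mice between 6.60 and 9.61 CPM. Without that mouse its log2 fold change was 0.33 (adjusted p = 0.0457). Ifi27l2a and Ifi44 had too few counts for the test. Ifi27l2a, at 0.113–0.654 CPM in young and 0.680–1.92 CPM in old mice, nevertheless did not overlap between the groups.

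In SOD1G93A spinal cord the set was higher by larger amounts. Of 42 members tested, 38 rose at an adjusted p under 0.05, against 18.4% of all 14386 genes tested, and 27 were called higher with the fold threshold, against 8.50%. A single member, Cmpk2, fell at the adjusted threshold alone, where 15.5% of all genes tested did. Ifitm1, Sp100 and Xaf1 did not pass, and Oas2 had too few counts. The 3 SOD1G93A mice all lay above the 3 controls for 39 of the 42 members, but with 3 against 3 mice this separation was common, reached by 25.7% of all genes tested. The log2 fold change was positive for 40 of the 42, against 50.3% of all genes tested, and its median was 1.32, where that of all genes tested was 0.00. Of the 42, Zbp1 and Ifi27l2a had at most 10 counts in every control and passed the count filter through the SOD1G93A group alone. Without them 36 of 40 rose, 25 of them past the fold threshold, 37 did not overlap, and the median was 1.27. These 40 still include scarce members such as Ifi44, which had 5 counts in 1 control and needed SOD1G93A mice to pass the filter. With at least 10 counts required in every library, 38 members were tested. There, 35 of the members that rose and 24 of those called higher were found again. Mean log2 CPM over the 42 members was 2.19, 2.43 and 2.53 in the controls and 3.50, 3.56 and 4.05 in the SOD1G93A mice. Without the SOD1G93A mouse that was highest for most members, 28 members rose and 20 of them past the fold threshold.

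**Figure D2:**
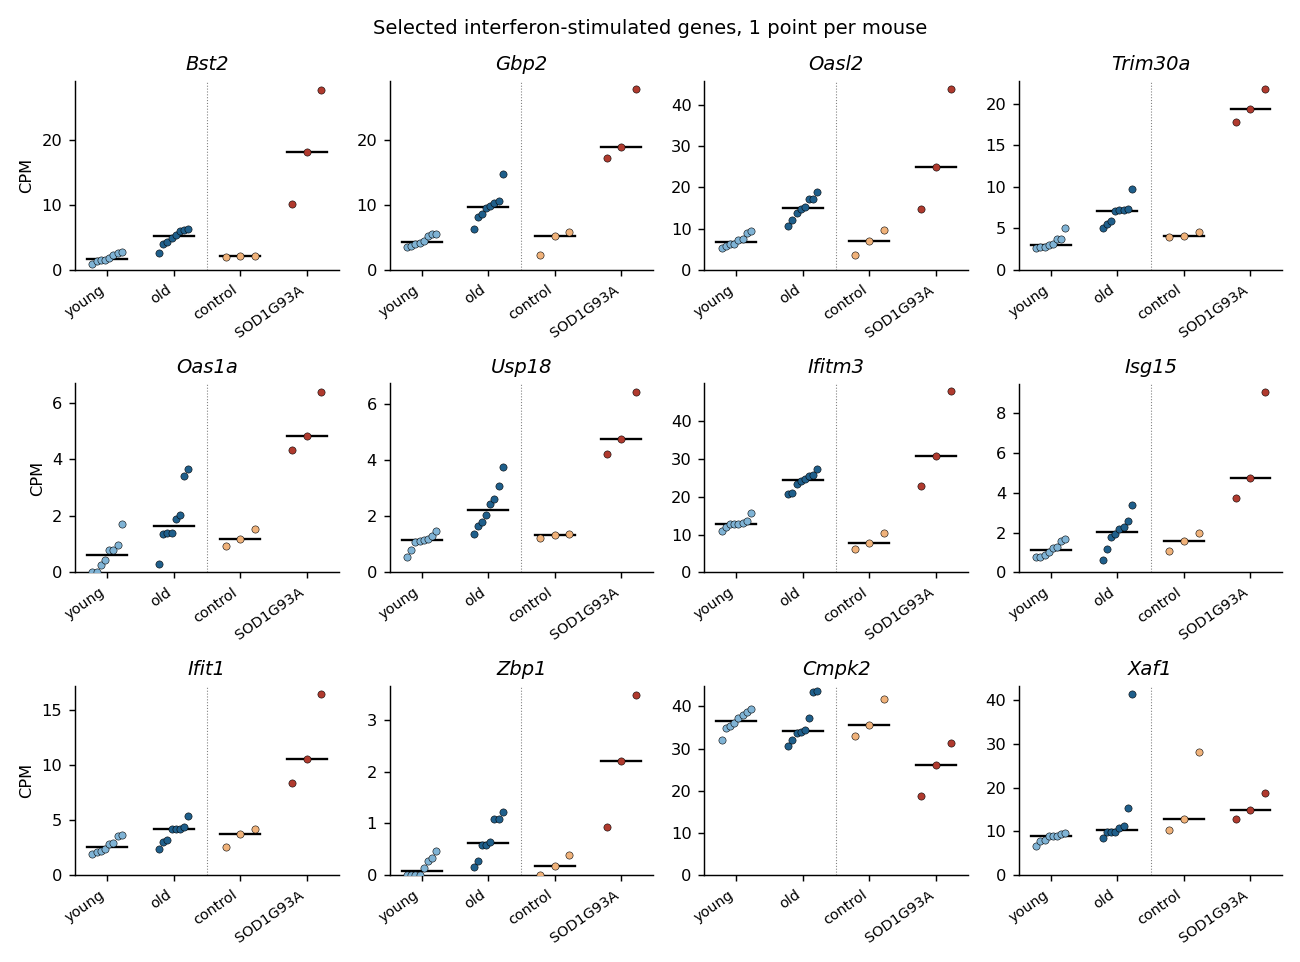
CPM of 12 members in each mouse, ordered by value within a group, with a bar at the group median; aging groups stand left and ALS groups right of the dotted line. Bst2, Gbp2, Oasl2 and Trim30a are higher in old than in young mice and higher in SOD1G93A than in control mice, Cmpk2 is lower in SOD1G93A than in control mice, and Xaf1 has 1 high old mouse and 1 high control mouse.

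Among the RNA-binding effectors 8 of 9 tested genes rose in SOD1G93A mice, 6 of them past the fold threshold, with Zbp1 in both counts. Zbp1 stood at 0, 0.168 and 0.380 CPM in controls and at 0.932, 2.22 and 3.49 CPM in SOD1G93A mice, without overlap. Its control values are 0, 2 and 4 counts and it was tested only because of the SOD1G93A group, so its fitted log2 fold change of 3.61 (SE 0.79) is given as a description. Oas1a stood at 0.949, 1.18 and 1.54 CPM in controls and 4.33, 4.83 and 6.36 CPM in SOD1G93A mice, and its log2 fold change of 2.06 was estimated more tightly than in aging (SE 0.29, adjusted p = 0.00153). Oasl2 stood at 3.53, 7.12 and 9.60 CPM in controls and 14.8, 24.9 and 43.8 CPM in SOD1G93A mice. Both groups spread widely without overlapping, and the log2 fold change was 2.05 (SE 0.43, adjusted p = 0.00814). Ifit1, at 2.54, 3.70 and 4.18 CPM against 8.39, 10.6 and 16.5 CPM, had a log2 fold change of 1.77 (SE 0.30, adjusted p = 0.00332). Ifit3 and Rsad2 rose by 1.65 and 1.61 on the log2 scale, and Eif2ak2 and Ifit2 by 0.85 and 0.73.

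Cmpk2 went the other way from its neighbour. The start sites of Rsad2 and Cmpk2 lie 12752 bases apart on chromosome 12 and point away from each other. Rsad2 stood at 0.845, 1.61 and 3.62 CPM in controls and at 5.34, 5.54 and 7.61 CPM in SOD1G93A mice (adjusted p = 0.0217), a call that was lost when any one of 3 of the 6 ALS mice was left out, with log2 fold changes between 1.22 and 2.34. Cmpk2 stood at 32.9, 35.7 and 41.7 CPM in controls and at 18.8, 26.1 and 31.2 CPM in SOD1G93A mice. The groups did not overlap, and Cmpk2 fell by 0.54 on the log2 scale (SE 0.18, adjusted p = 0.0435), a call that was lost when any one of 5 of the 6 ALS mice was left out.

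Of the ISG15, ubiquitin and PARP genes, all 9 rose in SOD1G93A mice and 7 passed the fold threshold. Trim30a, at 3.99, 4.07 and 4.55 CPM in controls and 17.8, 19.3 and 21.8 CPM in SOD1G93A mice, was tight in both groups, with a log2 fold change of 2.22 and the smallest adjusted p of the set (SE 0.15, adjusted p = 8.16e-05). Usp18 stood at 1.23, 1.35 and 1.38 CPM in controls and 4.23, 4.75 and 6.45 CPM in SOD1G93A mice, a log2 fold change of 1.95 (SE 0.27, adjusted p = 0.00145). Isg15 was more scattered, at 1.08, 1.60 and 1.99 CPM in controls and 3.73, 4.73 and 9.04 CPM in SOD1G93A mice, with a log2 fold change of 1.92 (SE 0.40, adjusted p = 0.00783). Parp9, Parp14, Herc6 and Trim25 rose by 1.56, 1.54, 1.25 and 1.12 on the log2 scale, and Parp12 and Dtx3l by 0.73 and 0.61. Parp9 and Dtx3l overlap over 682 bases on opposite strands, and whether the counting used strand is not given in the sources used here.

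All 8 interferon-inducible GTPases rose in SOD1G93A mice, 6 of them past the fold threshold. Gbp2 stood at 2.31, 5.22 and 5.79 CPM in controls and 17.2, 18.9 and 27.8 CPM in SOD1G93A mice, far apart in relation to the spread of either group, with a log2 fold change of 2.28 (SE 0.32, adjusted p = 0.00135). Log2 fold changes were 1.48 for Gbp6, 1.46 for Iigp1, 1.34 for Irgm2, 1.15 for Irgm1, 1.06 for Gbp3, 0.99 for Igtp and 0.80 for Gbp7. Iigp1 was the member called higher whose groups overlapped, with 1 control at 4.46 CPM and 1 SOD1G93A mouse at 4.32 CPM.

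The membrane restriction factors had the largest median of the role groups, 1.79. Bst2 stood at 2.07, 2.10 and 2.18 CPM in controls and 10.2, 18.2 and 27.8 CPM in SOD1G93A mice. Controls were nearly identical while the SOD1G93A mice spread widely, and the log2 fold change was 3.14 (SE 0.36, adjusted p = 0.000565). Ifitm3, at 6.22, 7.75 and 10.4 CPM in controls and 22.9, 30.8 and 47.9 CPM in SOD1G93A mice, had a log2 fold change of 2.07 (SE 0.29, adjusted p = 0.00133). Ifitm2 rose by 1.51 on the log2 scale, and 1 SOD1G93A mouse at 4.93 CPM lay close to the controls at 3.62–3.89 CPM. Ifitm1 stood at 0.759, 1.09 and 1.92 CPM in controls and 2.32, 2.69 and 3.05 CPM in SOD1G93A mice, groups that did not overlap, and its log2 fold change of 1.07 missed the threshold (SE 0.37, adjusted p = 0.0516).

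The RIG-I-like receptors, which had shown little in old mice, all rose in SOD1G93A mice. Log2 fold changes were 1.49 for Dhx58, 0.96 for Ddx58 and 0.94 for Ifih1, and 0.41 for Stat2. Of the further members, Ifi27l2a stood at 0.615, 0.664 and 0.758 CPM in controls and 2.37, 2.82 and 7.70 CPM in SOD1G93A mice, without overlap. It too was tested only because of the SOD1G93A group, and its fitted log2 fold change of 2.65 (SE 0.53) is a description. Ifi44 stood at 0.384, 1.23 and 1.26 CPM in controls and 2.80, 4.03 and 6.27 CPM in SOD1G93A mice, with a log2 fold change of 2.20 (SE 0.47, adjusted p = 0.00844). With 5 counts in 1 control, Ifi44 passed the count filter only with the SOD1G93A mice counted in. In both genes the same SOD1G93A mouse was the highest. Ifi35, Rtp4, Samd9l and Ifi27 rose by 1.29, 1.15, 0.86 and 0.69 on the log2 scale. Sp100, at 3.38, 6.23 and 7.69 CPM against 8.22, 9.87 and 11.7 CPM, had a log2 fold change of 0.80 that did not pass (SE 0.29, adjusted p = 0.0603). Xaf1 stood at 10.3, 12.8 and 28.3 CPM in controls and 12.8, 14.8 and 18.9 CPM in SOD1G93A mice. One control lay above every SOD1G93A mouse, and the log2 fold change was -0.15 (SE 0.34, adjusted p = 0.763) with it and 0.42 without it (adjusted p = 0.180).

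The changes of the members in the 2 comparisons, which share no mice, were set side by side. The 6 members called higher in old mice were also called higher in SOD1G93A mice, which is 100% of the former and 22.2% of the 27 called in the latter. Of the 24 members called in the latter and tested in both comparisons they are 25%, against 30.1% for all such genes. Of all 296 genes called higher in aging and tested in both comparisons, 95.9% were called higher in ALS, so the share of the members was near that of genes in general. A further 21 members were called in SOD1G93A mice only, among them Zbp1, Ifi27l2a and Ifi44, which had too few counts for a test in aging. Over the 39 members tested in both, 36 had the larger log2 fold change in SOD1G93A mice and 35 were positive in both, against 52.0% and 32.7% of all 13610 genes tested in both. Across these 39 genes, which are not independent of each other, the log2 fold changes had a Pearson r of 0.703 and a Spearman rho of 0.690. Over all 13610 genes these were 0.747 and 0.506.

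Whether a member changed by more in one comparison than in the other was tested as an interaction in one fit of all 22 libraries, in which kit and experiment coincide. The log2 fold change was more positive in ALS for 15 members, where it was for 11.6% of all 14502 genes tested, and more positive in aging for 1, Cmpk2, where it was for 14.2%. One of the 15, Ifi44, had too few counts for a test in the aging groups alone but entered the joint fit. Without it, 14 of the 39 members tested in both comparisons remain. For Ifitm3 the 2 log2 fold changes differed by 1.16 (SE 0.23, adjusted p = 0.000560). Herc6, a ligase that attaches ISG15 in mice, stood at 8.07, 8.91 and 9.18 CPM in controls and 17.5, 21.2 and 23.4 CPM in SOD1G93A mice, but at 4.38, 6.19 and 9.70 CPM in young and 5.71, 6.96 and 8.74 CPM in old mice. It separated the ALS groups fully and the aging groups hardly at all, a difference of 1.06 (SE 0.21, adjusted p = 0.000717). Trim30a, Bst2 and Eif2ak2 differed by 1.15, 1.64 and 0.61 (adjusted p = 0.00126, 0.00364 and 0.00694). The fitted difference of Ifi44 was 2.09 (SE 0.49), given as a description. For Cmpk2, which had no call in aging and fell in ALS, the difference was -0.55 (SE 0.17, adjusted p = 0.0153). Oas1a, Usp18 and Oasl2, called in both comparisons, were not among the 16.

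**Figure D3:**
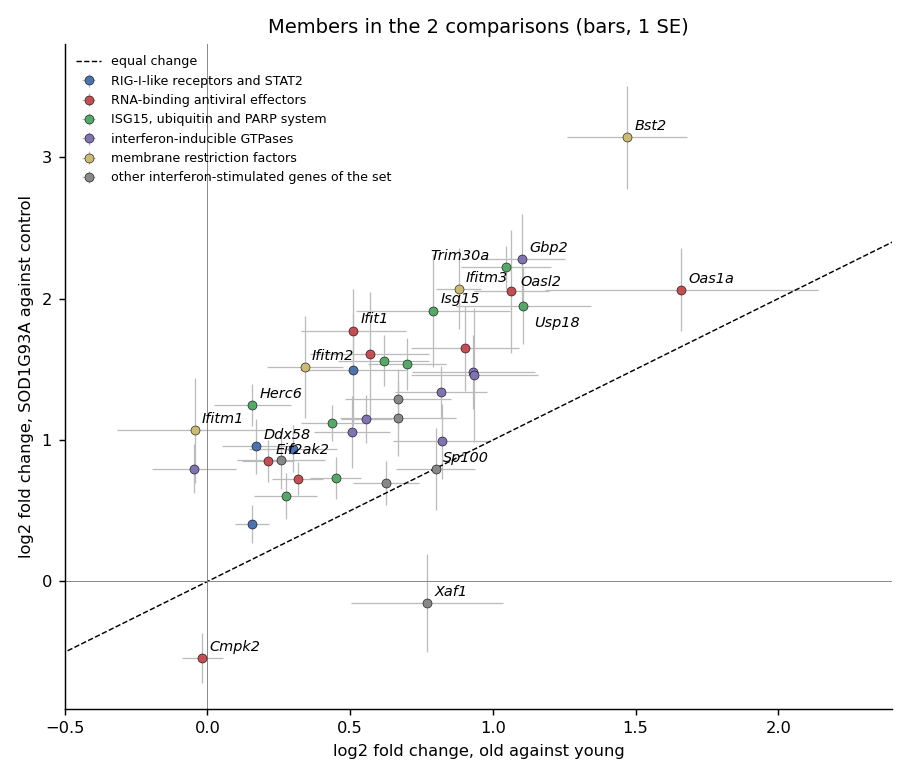
Log2 fold change of the 39 members tested in both comparisons, old against young on the horizontal axis and SOD1G93A against control on the vertical axis, with bars of 1 SE, colours for the role groups and a dashed line of equal change. All but 3 members lie above the line, Bst2 is highest at 1.47 and 3.14, and Cmpk2 at -0.02 and -0.54 and Xaf1 at 0.77 and -0.15 lie below 0 on the vertical axis.

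The promoter windows were set against the changes without a test. In old mice, the median log2 fold change was 0.57 over the 19 tested members with an ISRE core in the window and 0.38 over the 12 without it. In SOD1G93A mice the medians were 1.51 over 19 members and 0.86 over 13. Members with no promoter in the table had medians of 0.68 over 8 and 1.52 over 10, no lower than those of the members with the core. All 19 members with the core rose in SOD1G93A mice at the adjusted threshold, and 10 of the 13 without it passed, 1 of them, Cmpk2, being lower. The 10 tested members with no promoter in the table all passed too. In old mice 13 of 19 with the core, 7 of 12 without it and 8 of 8 with no promoter in the table passed. The ranges of the members with and without a core overlapped in both comparisons, and Oasl2, with no core in its window, was called higher in both.

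Markers of microglia, the resident macrophages of the tissue, moved with the set. Of the 10 markers, 7 rose in old mice and 6 in SOD1G93A mice at the adjusted threshold. Of all genes tested in these comparisons, 13.5% and 18.4% rose by this rule, and 12.9% and 15.5% fell. Their summed level was 370–410 CPM in young and 528–751 CPM in old mice, and 385–459 CPM in control and 1096–1642 CPM in SOD1G93A mice, without overlap in either comparison. The summed CPM of the tested members divided by that of the microglial markers was 0.697–0.794 in young and 0.523–0.724 in old mice, and 0.752–0.912 in control and 0.372–0.619 in SOD1G93A mice. Astrocyte markers summed to 7282–7886 CPM in young and 8190–9012 CPM in old mice, and to 6720–7321 CPM in control and 12434–19205 CPM in SOD1G93A mice, again without overlap. Of the 8 astrocyte markers, 4 rose and 1 fell in old mice, and 6 rose in SOD1G93A mice. Neuronal markers summed to 7984–9339 CPM in young and 6618–9143 CPM in old mice, and to 9454–10115 CPM in control and 3577–5951 CPM in SOD1G93A mice. Of the 8 neuronal markers, 3 fell and 1 rose in old mice, and 7 fell in SOD1G93A mice. Markers of border macrophages and monocytes summed to 3.25–6.72 CPM in young and 4.84–10.2 CPM in old mice, and to 2.07–4.80 CPM in control and 9.97–19.6 CPM in SOD1G93A mice. The T and NK cell markers summed to at most 2.26 CPM in young, 4.46 CPM in old, 1.77 CPM in control and 3.67 CPM in SOD1G93A mice. The part of these cell types in the rise of the set was not tested.

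**Figure D4:**
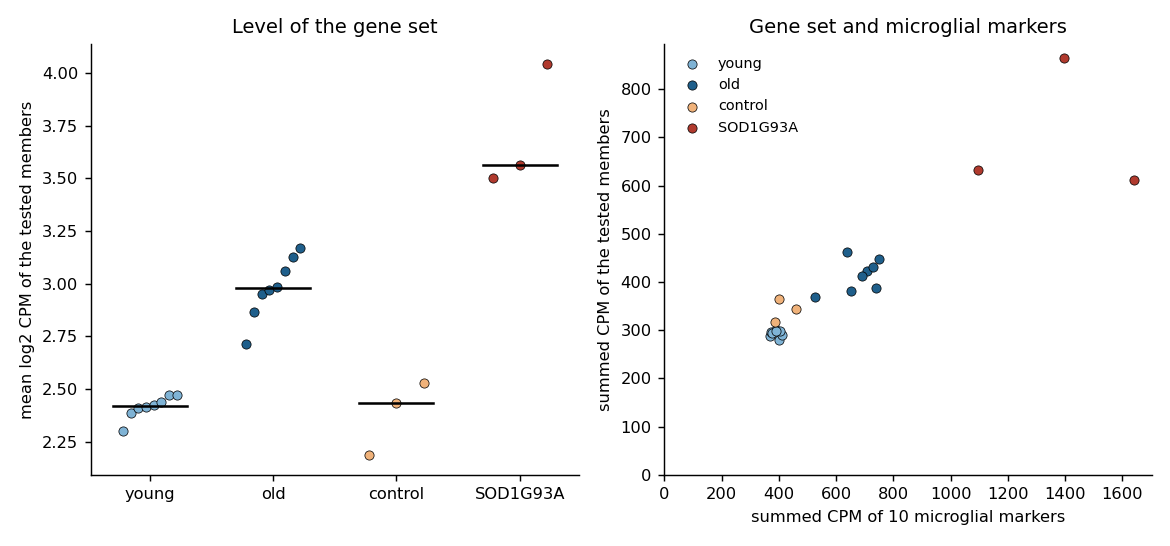
Left, mean log2 CPM over the tested members in each mouse (39 members in the aging groups, 42 in the ALS groups), with a bar at the group median and an axis that does not start at 0. Right, summed CPM of the tested members against summed CPM of 10 microglial markers in each mouse; the SOD1G93A mice lie at 1096–1642 on the horizontal axis, and the one with the most microglial marker CPM has the least member CPM of the 3.

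Genes that act upstream of the set, or beside it, were counted in the same fits. By the adjusted threshold, 13.5% of all genes tested rose and 12.9% fell in old mice, and 18.4% rose and 15.5% fell in SOD1G93A mice. With the fold threshold added, 2.18% and 8.50% of all genes tested were called higher. These shares are the reference for each list below. Interferons themselves were hardly seen. The 21 interferon genes in the table held 9 counts in all 22 libraries together, from Ifna7, Ifna16, Ifnb1, Ifnk, Ifnz and Ifng, and no gene had more than 1 count in any library, so no change in them was detectable at this depth. Of 9 genes for interferon receptors and JAK kinases, 4 rose and 1 fell in old mice. These were Il10rb (0.88), Ifngr1 (0.44), Ifnar2 (0.39) and Ifngr2 (0.22), and Jak2, which fell by 0.19 on the log2 scale. In SOD1G93A mice 5 rose and 1 fell. Ifngr1 (1.51), Il10rb (1.49) and Ifnar2 (1.04) passed the fold threshold. Ifnar1 rose by 0.43 and Jak1 fell by 0.37 on the log2 scale.

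Of 18 adaptors, kinases and receptors of nucleic acid sensing outside the set, 11 rose in old mice, 2 of them past the fold threshold, with a median log2 fold change of 0.28. Tlr7, an endosomal receptor for single-stranded RNA, rose by 1.65 (adjusted p = 6.72e-08) and Unc93b1, which carries it to the endosome, by 1.12. Zc3hav1, an antiviral RNA-binding protein, rose by 0.75, and Tmem173, which encodes STING, by 0.84. In SOD1G93A mice 13 rose and 1 fell, with a median of 0.94, and 8 passed the fold threshold. Tlr7 rose by 3.28, Unc93b1 by 2.30, Tmem173 by 1.62 and Zc3hav1 by 1.02. The one that fell was Adar, an RNA-editing enzyme, which fell by 0.36 on the log2 scale. Of the feedback inhibitors of interferon signaling most gave no call. In old mice 3 of 9 tested rose and 1 fell, with a median log2 fold change of 0.04, and in SOD1G93A mice 3 of 10 rose, with a median of 0.24. Ptpn6 and Socs3 passed both thresholds in each comparison, with log2 fold changes of 1.88 and 1.61 in old and 3.01 and 4.50 in SOD1G93A mice. Pias3 rose by 0.23 and Usp25 fell by 0.21 on the log2 scale in old mice, and Ptpn2 rose by 0.41 in SOD1G93A mice.

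A further 63 interferon-stimulated genes were in the table. Of 30 tested in aging, 18 rose at the adjusted threshold, with a median log2 fold change of 0.51, and 3 passed the fold threshold. Lgals3bp, a secreted galectin-binding glycoprotein, Cxcl10, a chemokine for T cells, and Slfn2 rose by 1.67, 2.55 and 1.62 on the log2 scale, and Shisa5 by 0.65. Of 46 tested in ALS, 32 rose, with a median of 1.37, and 25 passed the fold threshold. Genes that passed the count filter only through the SOD1G93A group were not taken out, and the 2 medians cover different genes. The DNA-binding proteins Ifi207 and Ifi204 rose by 7.58 and 3.94 on the log2 scale, Lgals3bp by 2.92 and Trim30d by 2.05. Control mice held 0.0597 CPM of Ifi207 on average, so its fold change depends on very few counts and is given as a description.

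**Figure D5:**
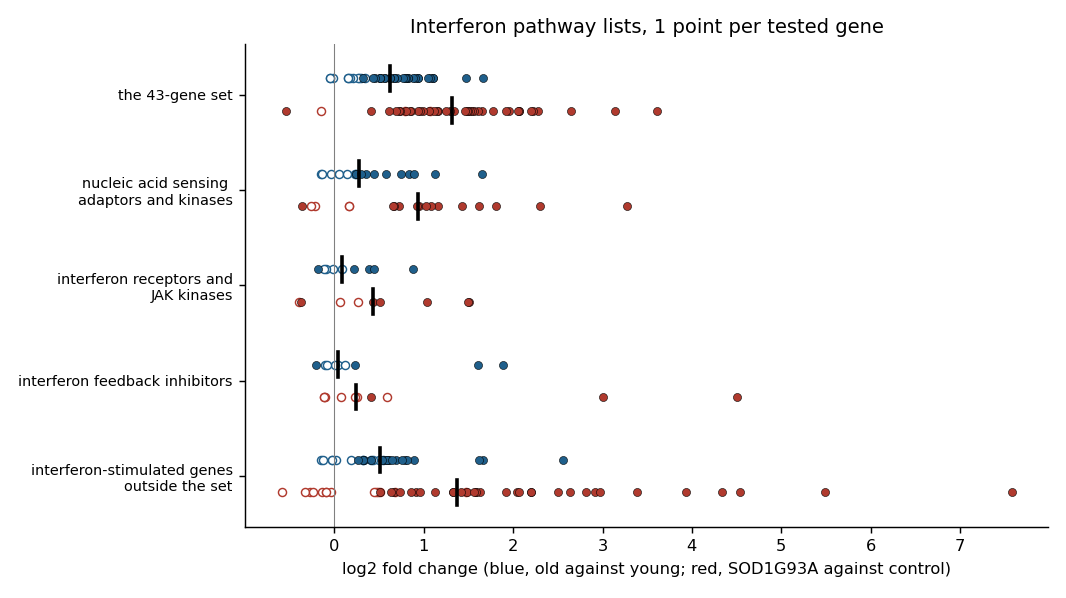
Log2 fold change of each tested gene in the 43-gene set and in 4 interferon pathway lists, old against young in blue and SOD1G93A against control in red, with filled points at an adjusted p under 0.05 and a bar at the median. The medians are 0.62 and 1.32 for the set, 0.28 and 0.94 for nucleic acid sensing, 0.09 and 0.43 for receptors and JAK kinases, 0.04 and 0.24 for feedback inhibitors and 0.51 and 1.37 for other interferon-stimulated genes. For the set, the feedback inhibitors and the other interferon-stimulated genes, the genes tested differ between the comparisons.

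Levels of different members were compared per length, as the deposited log2(FPKM + 1). Ifi27 had the highest level of the 43 in each of the 4 groups, at 5.18 ± 0.33 (SD, n = 8) in young, 5.77 ± 0.29 (SD, n = 8) in old, 5.35 ± 0.03 (SD, n = 3) in control and 6.10 ± 0.40 (SD, n = 3) in SOD1G93A mice. Ifitm3 came next in each group, at 4.31, 5.17, 3.64 and 5.63. Cmpk2 ranked at place 3 in young and 6 in old mice, and at place 4 in control and 14 in SOD1G93A mice, with levels of 3.55 ± 0.16 (SD, n = 3) and 3.10 ± 0.34 (SD, n = 3) in the last pair. Zbp1, Oas2 and Oas1a were among the lowest in young mice, at 0.10, 0.28 and 0.36.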

How the data were processed

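Whole spinal cord RNA of 22 mice was sequenced, and the libraries were grouped as young, old, control and SOD1G93A by their sample labels. Reads were aligned by the authors with STAR to mm10, and RSEM assigned them to genes of Ensembl release 88. They deposited expected counts, already whole numbers and without normalization between libraries, and a second table of log2 values, the log2 of FPKM plus 1. The table's columns name the group of a library and not its replicate number, and 0 columns belonged to samples of another series. No pair of libraries in a group was the same, since the chi-square of their counts over its degrees of freedom was at least 2.52. P-values rest on separate mice.

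Expected counts were fitted over the whole table, separately for each comparison, with R 4.3.3 and edgeR 4.0.16. The filter was filterByExpr, set to 10 counts and to 15 counts in total. After TMM scaling, p-values of edgeR's quasi-likelihood test were adjusted by Benjamini-Hochberg over every gene tested. The study's thresholds were used, an adjusted p under 0.05 and a log2 fold change beyond 1. CPM values use the TMM library sizes, and set means use a prior count of 2. Of the tested members, 2 had at most 10 counts in every control library (Zbp1 and Ifi27l2a) and so passed the filter through the SOD1G93A group. Other scarce members, such as Oas1a, Usp18 and Bst2 in aging and Ifi44 in ALS, reached the minimum in only some reference libraries. Their tests rest in part on the group where they were higher. A count of 3 equals at most 0.591 CPM in the aging and 0.310 CPM in the ALS libraries, and low values carry large counting error. RSEM divides reads shared by near-identical genes, so values of the Ifit, Ifitm, Oas and Gbp families may be exchanged in part. On simulated counts in which 200 genes were shifted by 1.5 log2 units, the procedure recovered 99% of them in the aging design (13576 genes) and 94.5% in the ALS design (14246 genes), with 5.26% and 3.57% of calls on unchanged genes.

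The 43 members, their role groups, the 5 pathway lists and the 14 cell type marker lists were chosen with earlier results of these data known. Values by mouse with full statistics are given for the 12 members with the largest change among those called with groups that do not overlap, the 4 most abundant tested members that did not pass, and the 6 with the smallest interaction p-values. At most 4 genes per pathway list are named, those past the threshold with the smallest adjusted p. Genes that fell, Igtp, Iigp1, Ifitm2, Rsad2, Oas1a, Usp18 and Bst2 in aging and the remaining fold changes are given beside these so that every member is accounted for. Of the genes on the lists, Mx2, Ifi30, Gbp11, Cxcl11, Oas1b and Trac were not analysed here, and 1 gene of the receptor and kinase list is not reported here. Alternatives were DESeq2 1.42.0, RLE scaling, other count filters, one fit of all libraries, glmTreat, limma 3.58.1 on the log2 values, and leaving out each library. Figures were drawn with Python 3.11.15, pandas 2.3.3 and matplotlib 3.10.9.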

Additional observations from a re-analysis of the deposited data

Results flagged for a closer look

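Among 80 groups of 8 values (39 members and the set mean, in young and in old mice), 4 held a value far from the others by Dixon's test at 95%, and chance alone flags about 1 in 20. In old mice, Xaf1 had 1 mouse at 41.6 CPM with the next at 15.3 CPM, a gap of 0.792 of the whole range. In young mice, the highest values of Irgm1 (13 CPM, next 11.1 CPM), Herc6 (9.70 CPM, next 6.69 CPM) and Trim30a (5.09 CPM, next 3.76 CPM) stood off by 0.617, 0.566 and 0.539 of the range. The high young value of Trim30a is also the one that nearly reaches the old mice.

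For 16 members the interaction test found that the log2 fold changes of the 2 comparisons differed at an adjusted p under 0.05. SOD1G93A minus old, the differences were 2.09 for Ifi44, 1.64 for Bst2, 1.23 for Ifit1, 1.16 for Ifitm3 and 1.15 for Trim30a, Gbp2 and Ifitm2. They were 1.06 for Herc6, 0.92 for Parp9, 0.82 for Gbp7, 0.81 for Parp14, 0.76 for Ddx58 and 0.65 for Trim25. For Eif2ak2, Irgm1 and Cmpk2 they were 0.61, 0.57 and -0.55. Ifi44 had too few counts for a test in the aging groups alone. Library kit, age, sex and depth differ between the 2 experiments together, and their part in these differences cannot be told apart.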

How the results depend on the processing

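No paired analysis was possible because the columns of the deposited tables carry no replicate numbers. The 6 members called higher in old mice became 9 with DESeq2, 6 with RLE scaling, 9 with no count filter, 8 in one fit of all libraries, 5 with glmTreat and 3 when at least 10 counts were required in every library, which leaves fewer genes tested. With 1 library left out they ranged from 4 to 7, and 4 was reached without 1 old mouse. The 28 that rose at the adjusted p alone ranged from 24 to 28 over these settings, numbered 23 in limma on the log2(FPKM + 1) values, and ranged from 23 to 29 with 1 library left out. In SOD1G93A mice, the 27 called ranged from 22 to 29 and the 38 past the adjusted p from 35 to 41. With 1 library left out they ranged from 20 to 30 and from 28 to 39, both lowest without the SOD1G93A mouse that was highest for most members. The single lower member, Cmpk2, ranged from 0 to 1 and was lost without any of the 3 controls or either of 2 SOD1G93A mice. The 15 members whose log2 fold change was more positive in ALS ranged from 14 to 16, the 14 being those tested in both comparisons, a restriction chosen after seeing the data, and from 12 to 18 with 1 ALS library left out. The 1 more positive in aging, Cmpk2, ranged from 0 to 1, being lost without 1 control or 1 SOD1G93A mouse. Further interferon-stimulated genes outside the set called higher in old mice numbered 3 of 30 tested with edgeR and 12 with DESeq2. DESeq2 was run without the count filter and so over more genes, and the cause of the difference was not tested. The sign turned when 1 library was left out for members near 0 in aging, namely Gbp7 (-0.11 to 0.0022), Ifitm1 (-0.23 to 0.11) and Cmpk2 (-0.065 to 0.015), and for Xaf1 in ALS (-0.42 to 0.42). Xaf1 in ALS also turned to 0.49 in limma on the log2(FPKM + 1) values (adjusted p = 0.0957), and the cause was not tested. In aging, Ifit1, Ifit2, Isg15, Dhx58, Rsad2, Gbp3 and Xaf1 lost their call in 1 or more other settings that kept all libraries, and Samd9l gained one in limma. Over the 16 fits that left out 1 aging library, Ifit1, Rsad2 and Dhx58 each lost theirs in 11, Isg15 in 8 and Xaf1 in 7. In ALS, Cmpk2 lost its call in limma, Sp100 and Ifitm1 each gained one in 2 settings, and with 1 library left out Cmpk2, Dhx58, Dtx3l, Gbp3, Ifitm2, Igtp, Iigp1, Rsad2, Rtp4, Samd9l and Stat2 lost theirs at least once. Counts near the filter minimum limit Oas1a, Zbp1, Oas2, Ifi27l2a and Ifi44 most.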

Other observations

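The 2 deposited tables disagree on Xaf1 in 2 libraries. The old mouse at 41.6 CPM held 309 counts and a log2(FPKM + 1) of 4.11, while another old mouse at 15.3 CPM held 110 counts and a slightly higher log2(FPKM + 1) of 4.19. The control mouse at 28.3 CPM held 368 counts and a log2(FPKM + 1) of 3.49, below the 3.93 of a control with 135 counts. Other members were not examined for such differences, and the cause was not tested.

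Within the SOD1G93A group the member set and the microglial markers did not rank the mice alike. The mouse with the highest summed member level, 865 CPM, had 1396 CPM of microglial markers, and the mouse with the most microglial markers, 1642 CPM, had the lowest summed member level, 611 CPM. With 3 mice no relation can be tested.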
